A study of Rattus norvegicus with 24 samples.

Results

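Piperazine designer drugs fall into 2 structural classes, benzylpiperazines and phenylpiperazines, and the comparison described here sets the gene expression response of cultured rat hepatocytes to the first class against the response to the second. The benzyl class holds BZP (benzylpiperazine) and MDBP (methylenedioxybenzylpiperazine), in which a methylene carbon joins the aromatic ring to the piperazine. The phenyl class holds TFMPP (trifluoromethylphenylpiperazine) and MeOPP (methoxyphenylpiperazine), in which the ring sits directly on the piperazine nitrogen. Each drug had 3 treated samples, and each treated sample had the DMSO control that its title names, so all 24 arrays of the series entered as 12 pairs. The change of a gene in a pair is its log2 value in the treated sample minus that in its control, and the class difference is the mean of the 6 benzyl pairs minus the mean of the 6 phenyl pairs.

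The cells were primary rat hepatocytes kept between collagen layers (sandwich culture), which received a drug or 0.1% DMSO for 24 h. The concentrations were 625 µM BZP, 467 µM MDBP, 35 µM TFMPP and 522 µM MeOPP, each labelled as the EC20 of that drug. By these labels the drugs were matched by effect level and not by concentration. Whether the effect was equal in these cultures was not tested. The labels give no strain, sex or age of the animals. They do not say whether replicates are separate animals or culture dishes, and p-values therefore reflect the variation among these arrays alone, part of which may be technical. RNA was measured on Affymetrix arrays as 31042 probe sets, whose log2 values ranged from 1.43 to 14.1. They covered 14217 named genes, each taken at its brightest probe set.

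Hepatocytes carry out most drug metabolism of the body through cytochromes P450 and conjugating enzymes, make bile acids and plasma proteins, and break down amino acids. Amphiphilic amines such as these drugs can collect in acidic lysosomes. Loss of sterol from the endoplasmic reticulum activates SREBP transcription factors, which drive lipid synthesis, while shortage of amino acids or unfolded protein activates ATF4, which drives serine and asparagine synthesis and amino acid import.

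The 12 controls fell into 5 clusters by their expression profiles, with correlations of 0.994 to 0.997 within a cluster and 0.962 to 0.992 between clusters. The labels do not name these clusters. Control cluster 1 held replicate 1 of every drug, cluster 2 held replicate 2 of BZP, TFMPP and MeOPP, cluster 3 held replicate 3 of BZP and MDBP, cluster 4 held replicate 3 of TFMPP and MeOPP, and cluster 5 held replicate 2 of MDBP alone. Only clusters 1 and 2 contain both classes, so class differences can be compared within these, over 4 and 3 pairs. The benzyl side of cluster 2 is replicate 2 of BZP alone, so MDBP does not enter there. For the list medians the plot shows both values. Hepatocyte markers were bright on every array: 7 of the 8 listed were measured, between 9.02 and 14.1. The 3' minus 5' signal change of the RNA quality probes was -0.00915 ± 0.102 (SD, n = 6) in benzyl pairs and 0.0381 ± 0.137 (n = 6) in phenyl pairs (exact permutation p = 0.528, two-sided). The spiked poly-A control probe sets, which do not come from the cells, differed between classes by 0.18 to 0.43 on the log2 scale (median 0.25), and 0 of the 57 control probe sets had an unadjusted p under 0.05.

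No gene passed the test of the class difference. In limma's fit with pair terms, 0 of 31042 probe sets had a Benjamini-Hochberg adjusted p under 0.05, that is 0% of the 14217 genes, and the smallest adjusted p was 0.0545. At an unadjusted p under 0.05 there were 2421 probe sets, 1176 higher and 1245 lower in the benzyl class. Counted over genes, 4.09% were higher and 4.38% lower at that limit, which is the background for every list below. The median standard error of the class difference was 0.11 on the log2 scale, and for 99.1% of genes the 95% interval lay within 2-fold in both directions. That share covers all 14217 genes, of which 5609 had a mean log2 level below 5. The share among brighter genes alone was not computed.

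Both classes moved largely the same genes. The mean of the benzyl pairs passed the test (adjusted p under 0.05) for 3386 genes: 14.1% of all genes rose and 9.74% fell. For the phenyl pairs 1781 genes passed; 6.25% of all genes rose and 6.27% fell. The 1460 genes called in both made up 43.1% of the benzyl calls and 82% of the phenyl calls. Among them 729 rose in both, 730 fell in both and 1 moved in opposite directions. The exception was Fkbp7, a peptidyl-prolyl isomerase of the endoplasmic reticulum, which is named here because its values were seen. Its log2 level was low, at 4 to 4.86 over all arrays, whose medians were 4.45 to 4.52. Its benzyl changes ran from -0.53 to 0.01 (median -0.24) and its phenyl changes from 0.09 to 0.49 (median 0.20). These groups did not overlap, yet the difference of -0.51 (95% interval -0.74 to -0.27) had an adjusted p of 0.254 in limma. A further 1926 genes were called for the benzyl mean alone, and 1772 of these had the same sign in the phenyl mean. Of the 321 called for the phenyl mean alone, 291 had the same sign in the benzyl mean. Over all genes the class mean changes correlated at r = 0.837, a description across genes, which are not independent replicates, of means that share no sample.

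**Figure D1:**
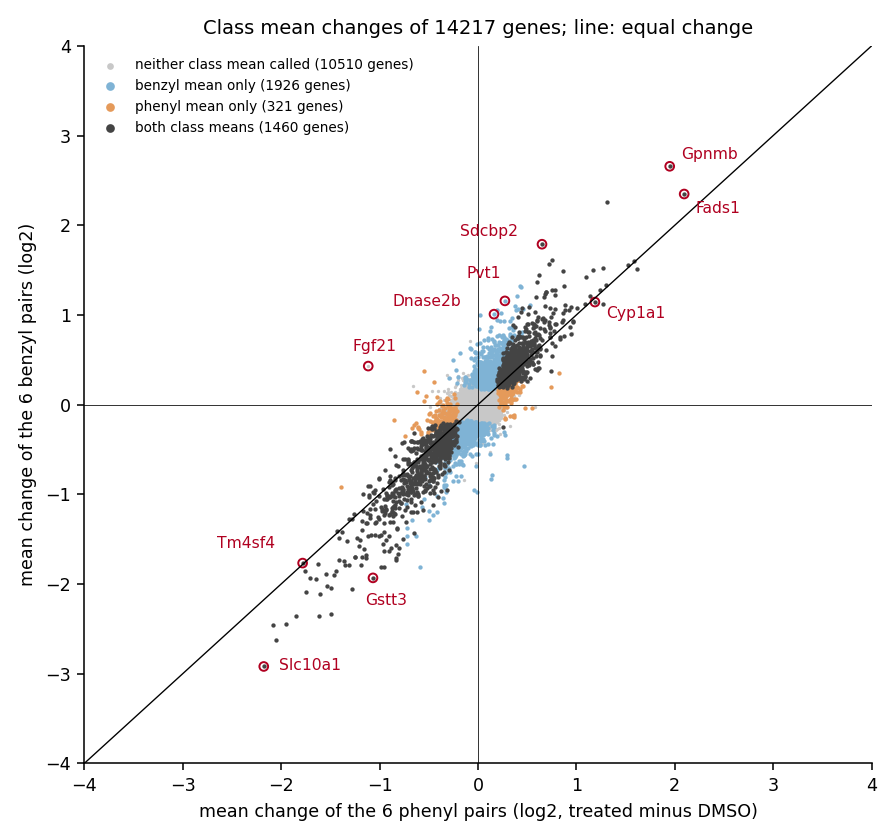
Mean log2 change of the 6 phenyl pairs (x axis) and of the 6 benzyl pairs (y axis) for 14217 genes, coloured by which class mean passed limma's test at an adjusted p under 0.05. The points follow the line of equal change (r = 0.837), and the ringed genes are described in the text.

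The benzyl changes tended to be the larger ones, by an amount that differed between control clusters. Among the 146 genes that changed at least 2-fold in the mean of all 4 drugs, 131 had the larger change in the benzyl class, with a median excess of 0.34 on the log2 scale. Within control cluster 1 the count was 86 and the median excess 0.078, and within control cluster 2 the count was 121 and the excess 0.433. The root mean square change over all genes was 0.328 ± 0.0497 (SD, n = 6 pairs) for benzyl and 0.273 ± 0.0357 (n = 6) for phenyl (exact permutation test over 924 assignments, p = 0.0584, two-sided). The lowest benzyl pairs were both from control cluster 1, at 0.272 and 0.282, inside the phenyl range of 0.238 to 0.325. The 2 phenyl drugs differed, with 0.255, 0.238 and 0.238 for TFMPP and 0.303, 0.325 and 0.275 for MeOPP. MDBP was at 0.282, 0.301 and 0.356, and BZP at 0.272, 0.367 and 0.391. Probe sets called for single drugs numbered 2867 (BZP), 2167 (MDBP), 1865 (MeOPP) and 551 (TFMPP). The smaller phenyl values were thus mostly those of TFMPP.

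A group of 81 genes changed at least 2-fold and passed the test in both class means, 16 rising and 65 falling. For 67 of them the 95% interval of the class difference lay within 2-fold. The 3 with the smallest class difference all fell. Car14, a membrane-bound carbonic anhydrase, fell by 1.28 in both class means, with benzyl changes of -1.57 to -0.89 and phenyl changes of -1.94 to -0.84. Mbl2, a mannose-binding lectin of the complement system, fell by 1.18 (benzyl) and 1.17 (phenyl). Tm4sf4, a tetraspanin-like membrane protein, fell by 1.77 and 1.78. The intervals of these class differences were -0.37 to 0.36, -0.44 to 0.42 and -0.34 to 0.37. Within control clusters 1 and 2 the differences were 0.31 and 0.13 for Car14, 0.33 and -0.45 for Mbl2, and 0.20 and -1.19 for Tm4sf4, whose fall after BZP in cluster 2 was the deepest of the 12 pairs (-2.84).

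The genes with the smallest p-values are given next; none passed, and all were chosen after their values were seen. Sdcbp2, a scaffold protein with PDZ domains, had benzyl changes of 1.09 to 2.59 (median 1.91) and phenyl changes of 0.23 to 1.53 (median 0.45). It rose in both class means, 3.46-fold after benzyl and 1.57-fold after phenyl drugs. All the benzyl pairs lay above 5 of the 6 phenyl pairs, the exception being replicate 2 of MeOPP. The class difference was 1.14 (95% interval 0.76 to 1.52, adjusted p = 0.0545), and it was 0.91 within control cluster 1 and 1.08 within cluster 2.

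Pvt1, a long non-coding RNA gene next to Myc, had benzyl changes of 0.80 to 1.46 (median 1.13) and phenyl changes of 0.00 to 1.00 (median 0.20). Only replicate 2 of MeOPP reached the benzyl range. Its class difference of 0.88 (0.58 to 1.18, adjusted p = 0.0545) was 1.11 within control cluster 1 and 0.69 within cluster 2. Dnase2b, an acid endonuclease of lysosomes, had benzyl changes of 0.56 to 1.38 (median 1.00) and phenyl changes of -0.41 to 0.65 (median 0.13). TFMPP pairs lay below 0 and MeOPP pairs above it. The benzyl mean rose 2.01-fold, and the class difference was 0.85 (0.58 to 1.12, adjusted p = 0.0545), with 0.82 and 1.10 within the clusters.

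Gpam, the mitochondrial acyltransferase that starts glycerolipid synthesis, had benzyl changes of 0.08 to 0.91 (median 0.55) and phenyl changes of -0.50 to 0.08 (median -0.19). The highest phenyl pair just met the lowest benzyl pair, and both were replicates 1. Its difference was 0.76 (0.50 to 1.01, adjusted p = 0.0545), being 0.37 within control cluster 1 and 1.02 within cluster 2. Adm, which encodes the vasodilator peptide adrenomedullin, had benzyl changes of 0.59 to 1.16 and phenyl changes of -0.07 to 0.42, with no overlap and an adjusted p of 0.0669. Uap1l1, similar to the enzyme that makes UDP-N-acetylglucosamine, also did not overlap, at 1.15 to 1.93 against 0.20 to 1.07 (adjusted p = 0.199).

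Gstt3, a theta class glutathione transferase, was the clearest case in the other direction. Its benzyl changes were -2.25 to -1.75 (median -1.87) and its phenyl changes -1.58 to -0.48 (median -1.21), so the groups did not overlap. It fell in both class means, 3.82-fold and 2.10-fold. The class difference was -0.86 (-1.14 to -0.59, adjusted p = 0.0545), at -0.53 and -0.93 within control clusters 1 and 2. Car5a, the mitochondrial carbonic anhydrase that supplies bicarbonate to the urea cycle, fell by 1.5 and 0.77 without overlap (benzyl -1.86 to -1.12, phenyl -1.04 to -0.48, adjusted p = 0.151 in limma). The Car5a controls of replicates 3 of BZP and MDBP were at log2 levels of 9.19 and 9.09, above the phenyl controls at 6.86 to 7.54. Treated levels were 5.75 to 7.37 (benzyl) and 5.92 to 6.83 (phenyl). With joined DMSO controls its class difference was 0.042. Igfbp7, a secreted binding protein, had benzyl changes of -1.09 to -0.27 and phenyl changes of -0.45 to 0.53, and the difference of -0.66 had the same size within control cluster 2 (-0.66) and was -0.78 within cluster 1. Over all genes, the 6 benzyl and 6 phenyl pairs did not overlap for 0.408%, 25 genes higher and 33 lower. The class I MHC genes RT1-S3 and RT1-CE5 also had probe sets at the smallest adjusted p, of opposite sign; members of this family are near copies, so these probe sets may not tell them apart.

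**Figure D2:**
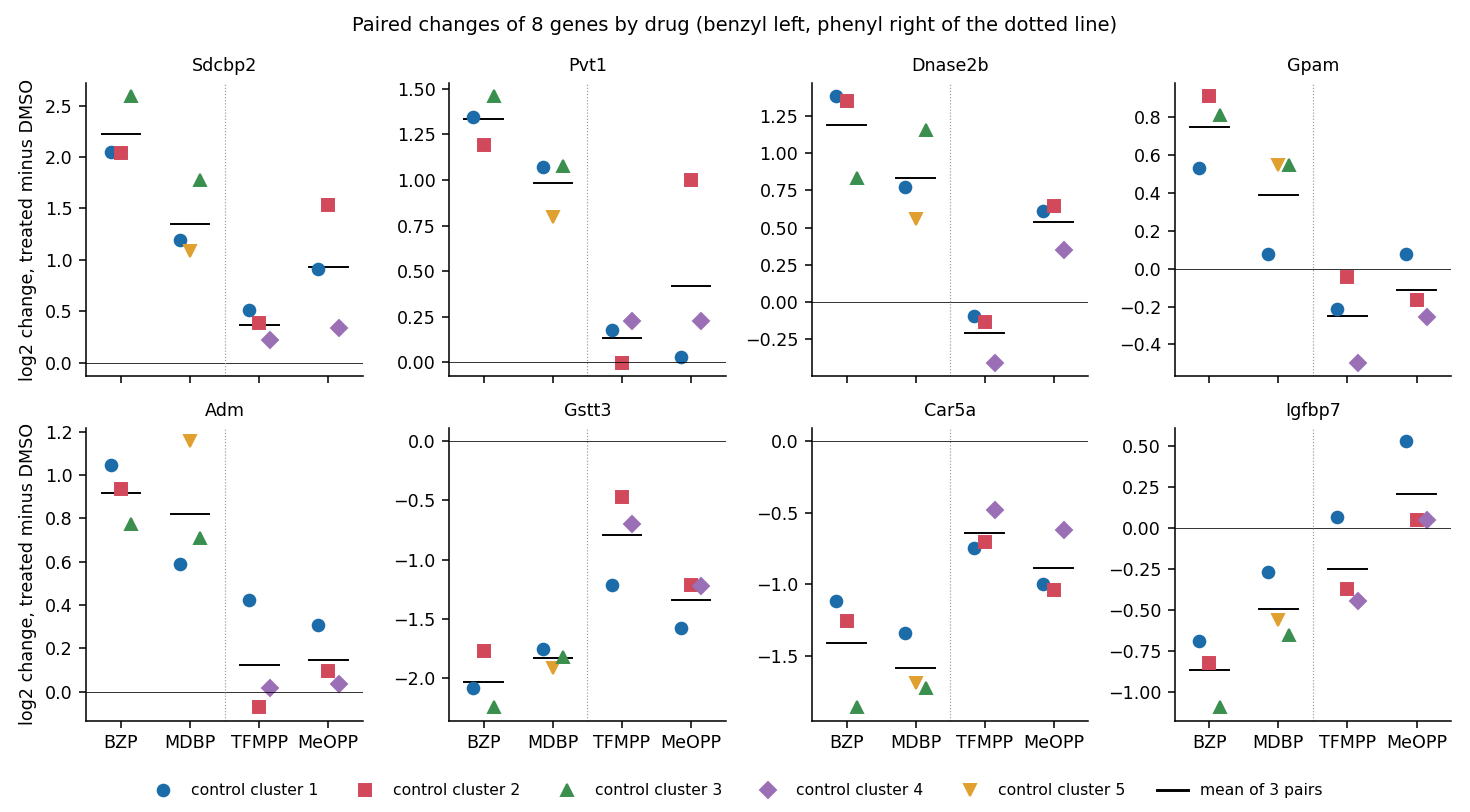
Paired log2 changes of 8 genes by drug, coloured by the control cluster of the pair, with a line at the mean of 3 pairs. Benzyl drugs are left and phenyl drugs right of the dotted line; Gstt3, Car5a and Adm do not overlap between classes, and replicate 2 of MeOPP (cluster 2) stands near the benzyl values for Sdcbp2 and Pvt1.

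Cholesterol synthesis genes rose after both classes. Of 18 measured genes of this pathway, 15 rose in the benzyl mean and 16 in the phenyl mean, with median changes of 0.70 and 0.62. Their median class difference was 0.03, against 0.00 over all genes, and 1 of 18 was lower at an unadjusted p under 0.05. Within control clusters 1 and 2 the median was 0.18 and 0.06, and it was 0.14 with the cluster as a block. Insig1, the endoplasmic reticulum anchor that retains SREBP, rose 2.33-fold and 1.72-fold, with benzyl changes of 0.86 to 1.62 and phenyl changes of 0.54 to 1.04. Its class difference of 0.44 (0.15 to 0.73, adjusted p = 0.447) was 0.04 within control cluster 1 and 0.33 within cluster 2.

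Of 29 genes of fatty acid and triglyceride synthesis, 4 were higher in the benzyl class and 0 lower at an unadjusted p under 0.05, and 22 of 29 differences were above 0 (median 0.12). The list median was 0.08 within control cluster 1 and 0.23 within cluster 2. Fads1, a fatty acid desaturase, rose 5.09-fold and 4.28-fold and its pairs overlapped widely (1.47 to 3.04 and 1.55 to 2.73). Fasn, the fatty acid synthase, rose 2.32-fold and 2.20-fold, and Srebf1, which encodes SREBP-1, rose 1.83-fold and 1.67-fold. Class differences were 0.25 (-0.28 to 0.78), 0.08 (-0.43 to 0.59) and 0.13 (-0.13 to 0.40) for these. Compared within control clusters they were larger: Fads1 differed by 0.67 and 0.65 in clusters 1 and 2, Fasn by 0.20 and 0.79, and Srebf1 by 0.16 and 0.38. The only benzyl pair of cluster 2 was replicate 2 of BZP. Its Fasn change of 2.41 stood far above the next benzyl pair at 1.26. Without this pair the class difference of Fasn was -0.16. With the cluster as a block the difference of Fads1 was 0.66 (SE 0.20) and that of Fasn 0.39. That limma fit left 4 residual degrees of freedom and called 0 probe sets (smallest adjusted p 0.366). Pnpla3, a lipid droplet acyltransferase and lipase, had changes of 1.02 to 1.87 after benzyl and 0.39 to 1.78 after phenyl drugs, where replicate 2 of MeOPP gave 1.78 and the other phenyl pairs at most 0.51. Plin3, a lipid droplet coat protein, rose by 0.94 and 0.60.

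Fatty acid oxidation genes and targets of PPAR alpha, the fatty acid receptor of hepatocytes, fell after both classes. In the benzyl mean 23 of 32 fell and in the phenyl mean 21 fell, with medians of -0.69 and -0.44. At an unadjusted p under 0.05, 10 were lower in the benzyl class (31.2%) and 1 higher. Cpt1a, which brings fatty acids into mitochondria, had benzyl changes of -1.22 to -0.60 and phenyl changes of -0.91 to 0.11, a difference of -0.64 (adjusted p = 0.208). Ehhadh, a peroxisomal beta-oxidation enzyme, touched but did not overlap between classes (-2.40 to -1.13 and -1.13 to -0.52; adjusted p = 0.319). Cyp4a1, a fatty acid hydroxylase, fell 4.14-fold and 2.43-fold. The list median of -0.20 was -0.01 within control cluster 1 and -0.22 within cluster 2.

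Bile acid genes fell in both classes, 19 of 26 in the benzyl mean and 14 in the phenyl mean. Slc10a1, the sodium-dependent bile acid importer NTCP, fell 7.57-fold and 4.52-fold, with benzyl changes of -3.61 to -2.26 and phenyl changes of -3.19 to -1.49. Both MeOPP replicates 1 and 2 lay inside the benzyl range. The class difference was -0.74 (-1.25 to -0.24, adjusted p = 0.471), -0.61 within control cluster 1 and -1.23 within cluster 2. Cyp7a1, which catalyses the first and limiting step from cholesterol to bile acids, had a class difference of -0.85 over all pairs, but -0.23 within control cluster 1 and 0.45 within cluster 2. Its deepest falls, -2.72 and -3.11, were the replicates 3 of BZP and MDBP, both of control cluster 3, which holds no phenyl pair. Slc27a5, which activates bile acids, went from -0.88 over all pairs to -0.21 and 0.13 within clusters, and the organic anion importer Slco1a4 from -0.83 to -0.13 and -0.55.

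The drug metabolizing P450 enzymes had a median class difference of -0.27, as did the interferon list described further on, the lowest of the 34 lists over all pairs. In families 2 and 4, 12 of 26 genes were lower in the benzyl class at an unadjusted p under 0.05 (46.2%) and 0 higher, and 18 fell in the benzyl mean against 15 in the phenyl mean. Within control clusters 1 and 2 the medians were -0.12 and -0.09, and with the cluster as a block the P450 median was -0.10 and the interferon median -0.23. Cyp2e1, the ethanol-inducible enzyme, had benzyl changes of -2.38 to -1.11 and phenyl changes of -2.08 to -0.22; its difference of -0.61 was -0.59 and -1.20 within clusters. Cyp2c11, the male-specific enzyme of rat liver, fell 3.02-fold and 1.85-fold, and its difference of -0.71 was -0.22 and -0.01 within clusters. Cyp2c23, an arachidonic acid epoxygenase, had a difference of -0.75, and -0.35 and -0.29 within clusters.

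Genes under CAR and PXR, nuclear receptors that sense foreign compounds, fell as well, 15 of 21 in the benzyl and 11 in the phenyl mean. Cyp2c6v1 touched but did not overlap between the classes, at -1.20 to -0.77 and -0.77 to 0.15, and its difference of -0.59 was -0.54 and -0.45 within clusters. Cyp3a23-3a1, the steroid-inducible 3A enzyme, fell 2.21-fold and 1.82-fold, a difference of -0.28 (-0.79 to 0.24) over all pairs. Within control clusters 1 and 2 its difference was -0.63 and -0.77, and with the cluster as a block -0.64 (SE 0.14). The limma fit with that block left 4 residual degrees of freedom and called 0 probe sets (smallest adjusted p 0.366). Of the aryl hydrocarbon receptor and its targets, 1 of 11 genes was higher and 1 lower in the benzyl class at an unadjusted p under 0.05, with a median difference of -0.02. Cyp1a1, the most inducible target, rose 2.21-fold and 2.28-fold, with pair changes of -0.58 to 2.31 and 0.56 to 2.01 and a difference of -0.05 (-0.90 to 0.81), an interval that allows nearly 2-fold in either direction. All 4 replicates 1 of Cyp1a1 lay between 1.91 and 2.31, above every other pair. Cyp1a2 passed the test in neither class mean, with changes of -1.34 to 0.48 and 0.06 to 0.43.

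Breakdown of amino acids was the most uniformly lowered pathway in both classes, with 42 of 44 genes falling in the benzyl mean and 36 in the phenyl mean (medians -0.94 and -0.70). In the benzyl class 9 were lower and 0 higher at an unadjusted p under 0.05. The list's median difference was -0.16, and it was 0.10 within control cluster 1 and -0.28 within cluster 2. Gnmt, which disposes of excess methyl groups, fell 2.60-fold and 1.77-fold, with benzyl changes of -1.58 to -1.09 and phenyl changes of -1.39 to -0.44. Cbs, which commits homocysteine to cysteine, fell 2.26-fold and 1.48-fold. The pyrimidine breakdown enzyme Dpys and the urea cycle enzyme Otc had differences of -0.83 and -0.85 over all pairs, which were 0.23 and 0.17 within control cluster 1 and -0.18 and -0.28 within cluster 2. For Otc the replicates 3 of both benzyl drugs were at -2.0 and -2.36 and replicate 3 of MeOPP was at 0.27. Log2 levels of Otc in treated samples were 4.26 to 5.4 (benzyl) and 4.12 to 5.35 (phenyl). Its controls were at 5.56 to 7.75 (benzyl) and 5.08 to 5.86 (phenyl).

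Among 46 complement, coagulation and other plasma protein genes, 34 fell in the benzyl mean and 25 in the phenyl mean. Apoa2, an apolipoprotein of HDL, did not overlap (-1.35 to -0.86 and -0.79 to -0.14), and its difference of -0.66 (adjusted p = 0.203) was -0.41 and -0.49 within clusters. Alb, albumin, was near the top of the array's range at 14.06 and its paired changes ran from -0.02 to 0.01 (benzyl) and from -0.04 to 0.00 (phenyl). The growth factor gene Igf1 differed by 0.04 (-0.15 to 0.24); the phenyl mean fell by 0.23 and the benzyl mean, at -0.19, did not pass. Of the hepatocyte transcription factors, Hlf, a PAR bZIP factor, fell by 1.2 and 0.68, a difference of -0.52 that was -0.50 and -0.59 within clusters. Onecut1, known as HNF6, rose in the benzyl mean by 0.63 and was -0.07 in the phenyl mean, differing by 0.70 (0.54 and 0.57 within clusters; adjusted p = 0.322).

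**Figure D3:**
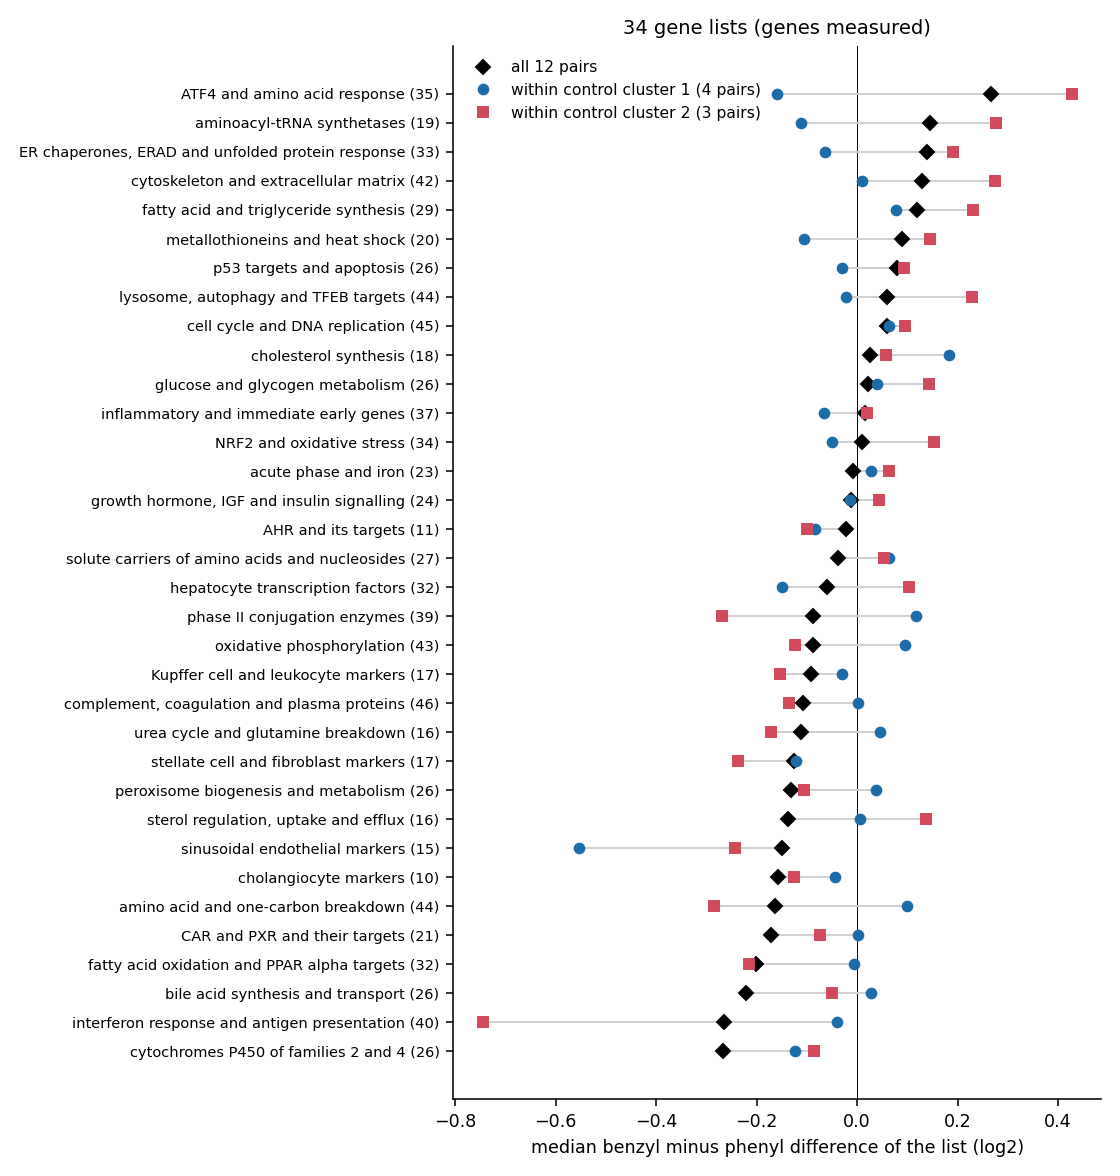
Median benzyl minus phenyl difference (log2) of each of 34 gene lists over all 12 pairs (diamonds), within control cluster 1 (circles, 4 pairs) and within control cluster 2 (squares, 3 pairs). The ATF4 list is at 0.27 over all pairs but -0.16 within cluster 1, and the interferon list at -0.27, -0.04 and -0.75.

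The ATF4 and amino acid response list had the highest median class difference, 0.27. In the benzyl mean 21 of 35 genes rose, and in the phenyl mean 2 rose and 2 fell. At an unadjusted p under 0.05, 12 were higher (34.3%) and 1 lower in the benzyl class. Its median was 0.43 within control cluster 2 and -0.16 within cluster 1. Per pair, the list median was -0.01, 0.49 and 0.90 for BZP and 0.08, 0.58 and 0.80 for MDBP, against -0.10 to 0.31 over the phenyl pairs, so that the benzyl pairs of control cluster 1 lay inside the phenyl range and the other 4 above it.

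Promoters of 2 genes of this list are shown because their members moved together in most benzyl pairs; capitals mark matches to TGATGNAA, the C/EBP-ATF response element through which ATF4 acts, searched on both strands (the reverse reads as TTNCATCA). Sequences are RefSeq's on the GRCr8 build, from 250 bases before to 50 after the gene start, written along the gene. Fgf21 is on the minus strand at chr1:105221327-105221626, and Trib3 on the minus strand at chr3:161275484-161275783.
Fgf21: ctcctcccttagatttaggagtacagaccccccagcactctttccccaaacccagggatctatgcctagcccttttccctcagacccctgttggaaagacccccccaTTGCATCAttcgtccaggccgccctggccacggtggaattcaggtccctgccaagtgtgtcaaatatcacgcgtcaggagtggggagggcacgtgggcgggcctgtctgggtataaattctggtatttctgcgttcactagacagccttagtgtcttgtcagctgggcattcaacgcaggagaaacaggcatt
Trib3: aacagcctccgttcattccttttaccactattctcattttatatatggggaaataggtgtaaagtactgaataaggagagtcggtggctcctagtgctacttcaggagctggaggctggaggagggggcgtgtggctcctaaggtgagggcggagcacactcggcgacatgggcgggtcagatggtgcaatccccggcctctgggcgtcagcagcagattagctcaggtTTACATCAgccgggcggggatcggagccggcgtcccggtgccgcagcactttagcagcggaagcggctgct
The match lies 143 bases before the start of Fgf21 and 21 bases before that of Trib3. Of the 30 list members with a promoter in that set, 7 held a match (23.3%), as did 3.98% of all 33469 promoters. The list was chosen as genes of the ATF4 response, so its share of matches does not bear on the class difference. The median class difference was 0.47 for the 7 and 0.24 for the other 23. At an unadjusted p under 0.05 in limma, 3 of the 7 and 8 of the other 23 were higher in the benzyl class.

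Fgf21, a liver hormone of fasting and amino acid shortage, had the largest class difference among the genes of the lists. Its changes were -1.52, 0.94 and 1.37 for BZP and -1.21, 1.83 and 1.17 for MDBP, and -1.76 to -0.14 (median -1.21) over the phenyl pairs. Both benzyl pairs of control cluster 1 fell among the phenyl pairs and the other 4 lay above them. The class difference was 1.55 (0.52 to 2.57, adjusted p = 0.453), and it was -0.03 within control cluster 1 and 1.61 within cluster 2. Log2 levels of Fgf21 in treated samples were 5.38 to 6.58 (benzyl) and 4.63 to 6.13 (phenyl). The controls of replicates 2 and 3 of BZP and MDBP were at 4.52 to 5.2, below the phenyl controls at 5.82 to 7.26. The part of these control levels in the class difference of Fgf21 was not tested.

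Phgdh and Psat1, which carry out successive steps of serine synthesis, rose in the benzyl mean, 2.00-fold and 2.47-fold, and did not pass in the phenyl mean. Benzyl changes of Phgdh ran from 0.12 to 1.89 and phenyl changes from -0.55 to 0.56; those of Psat1 ran from 0.26 to 2.27 and from -0.20 to 1.21. Differences of 0.97 and 0.87 became 0.06 and -0.20 within control cluster 1, and were 0.83 and 0.95 within cluster 2. Asns, asparagine synthetase, rose 2.10-fold in the benzyl mean, and its difference of 0.66 (adjusted p = 0.536) was -0.28 within cluster 1 and 0.68 within cluster 2. Trib3, a pseudokinase that restrains ATF4 signalling, rose by 0.54 in the benzyl mean, with changes of -0.28 to 1.37 against -0.23 to 0.23. Ddit3, the stress factor CHOP, passed in neither class mean. Vldlr, a lipoprotein receptor, did not overlap between classes (-0.16 to 0.94 and -0.85 to -0.22; adjusted p = 0.208), and its difference of 0.92 was 0.34 and 1.06 within clusters.

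Of the aminoacyl-tRNA synthetases, which load amino acids onto tRNA, 10 of 19 rose in the benzyl mean and 1 in the phenyl mean, with a median difference of 0.15, and of -0.11 within control cluster 1 and 0.28 within cluster 2. Genes of the endoplasmic reticulum chaperones and the unfolded protein response fell, 10 of 33 in the benzyl mean and 18 in the phenyl mean, and 1 rose in the benzyl mean. Hspa5, the chaperone BiP, had a phenyl mean of -0.41 that passed and a benzyl mean of -0.22 that did not, with a difference of 0.19 (-0.16 to 0.55). Ero1b, an oxidase that forms disulfide bonds, fell by 0.50 and 0.89.

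None of the 40 interferon response and antigen presentation genes passed the test of the class difference, and their median difference was -0.27. The count at an unadjusted p under 0.05 was 12 of 40 lower (30%) and 0 higher. In the benzyl mean 10 fell and 1 rose, and in the phenyl mean 4 rose. The list medians per pair were -0.20, -0.25 and -0.23 for BZP, 0.06, -0.01 and -0.04 for MDBP, -0.12, 0.69 and 0.38 for TFMPP, and -0.12, 0.20 and -0.03 for MeOPP. BZP was therefore low in each pair, and TFMPP high in 2 of its 3 pairs, while MDBP and MeOPP overlapped. The median difference was -0.04 within control cluster 1 and -0.75 within cluster 2.

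Promoters of 2 of these genes are shown for the sequence their family shares; capitals mark matches to GAAANNGAAA, the core of the interferon-stimulated response element, on both strands. Oas1a is on the plus strand at chr12:41330216-41330515 and Irf7 on the minus strand at chr1:205799974-205800273 (GRCr8, RefSeq).
Oas1a: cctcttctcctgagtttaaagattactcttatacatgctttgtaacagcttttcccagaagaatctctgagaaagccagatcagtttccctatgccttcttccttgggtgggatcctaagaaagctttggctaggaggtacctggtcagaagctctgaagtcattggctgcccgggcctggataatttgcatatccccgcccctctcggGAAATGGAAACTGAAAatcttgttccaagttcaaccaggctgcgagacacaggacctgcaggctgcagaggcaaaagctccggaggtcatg
Irf7: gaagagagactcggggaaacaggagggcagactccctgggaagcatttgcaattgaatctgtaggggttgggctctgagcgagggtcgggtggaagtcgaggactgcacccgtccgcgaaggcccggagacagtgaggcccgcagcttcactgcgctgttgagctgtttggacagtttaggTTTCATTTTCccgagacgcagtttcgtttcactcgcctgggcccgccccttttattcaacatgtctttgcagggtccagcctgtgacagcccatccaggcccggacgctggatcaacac
Oas1a holds 2 overlapping matches, 41 and 35 bases before its start, and Irf7 holds 1, beginning 69 bases before its start. Of 33 list members with a promoter in that file, 22 held a match (66.7%), as did 3.92% of all promoters. This list too was chosen by function, so its share of matches does not bear on the class difference. The median class difference was -0.23 for the 22 and -0.26 for the other 11. At an unadjusted p under 0.05 in limma, 5 of the 22 and 2 of the other 11 were lower in the benzyl class. The list members without a promoter there, Isg15 and Usp18 among them, entered neither median.

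Isg15, a ubiquitin-like protein, had changes of -2.0, -0.85 and -1.46 after BZP and -0.23, 0.39 and 0.05 after MDBP. After TFMPP they were -0.46, 1.75 and 1.01, and after MeOPP -0.07, 0.52 and 0.08. Only BZP pairs lay below the phenyl range. The class difference was -1.16 (-1.76 to -0.55, adjusted p = 0.320), at -0.86 within control cluster 1 and -1.98 within cluster 2.

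Oas1a, an enzyme that senses double-stranded RNA, fell 1.97-fold in the benzyl mean, with changes of -1.63 to -0.18 against -0.76 to 1.02, a difference of -0.97 (adjusted p = 0.203) that was -0.19 and -1.50 within clusters. Usp18, which removes Isg15 from proteins, fell by 0.83 in the benzyl mean, and Mx2, an antiviral GTPase, by 0.78. Their differences of -0.96 and -0.92 were -0.90 and -0.28 within control cluster 1 and -1.62 and -2.51 within cluster 2. The transcription factors Irf7 and Irf9, which carry interferon signals, fell by 0.56 and 0.33 in the benzyl mean and differed by -0.85 and -0.50. Apol9a, an interferon-inducible apolipoprotein L, differed by -0.89 (adjusted p = 0.151). For each of these 7 genes the mean change after MDBP lay between that after BZP and that after TFMPP. Against MeOPP the order of MDBP varied. MDBP and MeOPP were at -0.27 and -0.402 for Usp18 and at 0.035 and -0.17 for Irf9. For Oas1a they were at -0.649 and -0.525, and for Apol9a at -0.262 and -0.149.

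**Figure D4:**
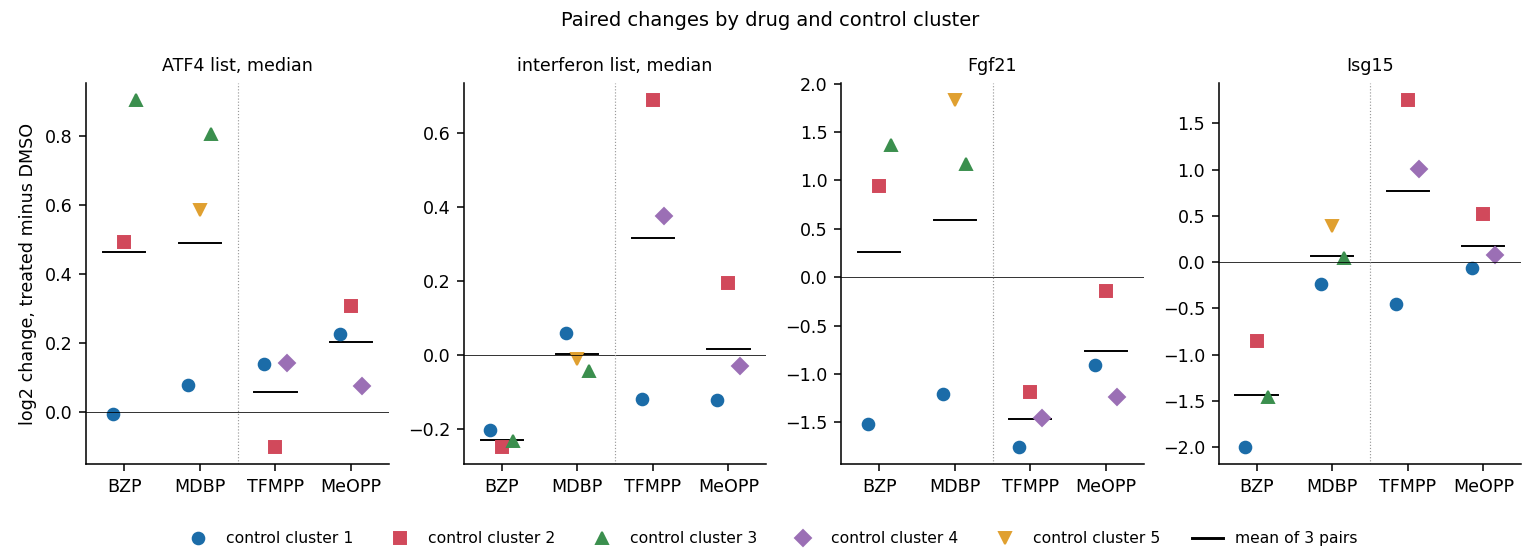
Paired log2 changes by drug, coloured by control cluster, with the mean of 3 pairs as a line: the median of the ATF4 list (35 genes), the median of the interferon list (40 genes), Fgf21 and Isg15. For the ATF4 list and Fgf21 the benzyl pairs of control cluster 1 lie inside the phenyl range while the other benzyl pairs lie above it; for Isg15 the BZP pairs are the lowest.

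Genes of lysosomes, autophagy and TFEB, the factor that drives lysosome formation, rose in both classes, 22 of 44 in the benzyl mean and 18 in the phenyl mean. Of these genes 8 were higher (18.2%) and 1 lower in the benzyl class at an unadjusted p under 0.05. The median difference was 0.06, and it was -0.02 within control cluster 1 and 0.23 within cluster 2. Gpnmb, a glycoprotein of stressed lysosomes, rose 6.31-fold and 3.86-fold. Its benzyl changes were 2.12 to 2.98 (median 2.72) and its phenyl changes 1.30 to 2.69 (median 1.77), with MeOPP replicates 1 and 2 inside the benzyl range. The difference of 0.71 (0.35 to 1.07, adjusted p = 0.318) was 0.11 and 0.68 within clusters. Rragd, a GTPase that signals amino acids at the lysosome, rose 4.78-fold and 2.48-fold, with changes of 1.89 to 2.64 and 0.58 to 2.05. Its difference was 0.95 over all pairs, and 0.29 and 0.56 within clusters.

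Oxidative stress genes under NRF2 moved in both directions, with 5 of 34 higher and 3 lower at an unadjusted p under 0.05 and a median difference of 0.01. Nqo1, a quinone reductase, rose more in the phenyl mean (1.68-fold) than in the benzyl mean (1.30-fold), a difference of -0.37 (-0.63 to -0.11, adjusted p = 0.471). Akr1b8, an aldo-keto reductase, rose 1.80-fold in the benzyl mean and was at 0.01 in the phenyl mean, with changes of 0.11 to 1.66 against -0.35 to 0.38 and differences of 0.75 and 0.38 within clusters. Hmox1, heme oxygenase 1, passed in neither class mean, and its difference of 0.53 was -0.18 within control cluster 1 and 0.97 within cluster 2. Among p53 targets, Mdm2, the ubiquitin ligase that restrains p53, rose 1.75-fold and 1.42-fold, and Cdkn1a, the cell cycle inhibitor p21, rose in the phenyl mean by 0.30 and was at 0.12 in the benzyl mean. Their differences of 0.30 and -0.19 did not pass (adjusted p = 0.532 and 0.686). Within control clusters 1 and 2 they were 0.10 and 0.35 for Mdm2, and -0.39 and 0.15 for Cdkn1a.

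Of 42 genes of the cytoskeleton and extracellular matrix, 11 rose and 4 fell in the benzyl mean, and 5 rose and 2 fell in the phenyl mean. Their median difference was 0.13, and 0.01 and 0.28 within control clusters 1 and 2. Of these genes Anxa5 and Anxa2, calcium-dependent membrane-binding annexins, are named because their values were seen. Anxa5 rose 2.73-fold and 1.54-fold, with 5 of the benzyl pairs between 1.49 and 1.63 and replicate 1 of MDBP at 0.90, and phenyl pairs of 0.10 to 1.58. Anxa2 rose 2.58-fold and 1.52-fold. Differences were 0.83 and 0.77, with 0.54 and 0.23 within control cluster 1 and 0.76 and 0.88 within cluster 2. The third annexin, Anxa1, passed in neither class mean (-0.27 in both), and Tagln, the actin-binding protein transgelin, fell by 0.45 in the benzyl mean and was at 0.00 in the phenyl mean.

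No marker gene of other liver cells passed the test of the class difference. Those lower at an unadjusted p under 0.05 were 4 of 17 Kupffer cell and leukocyte markers, 4 of 17 stellate cell markers, 3 of 15 sinusoidal endothelial markers and 1 of 10 cholangiocyte markers, and 0 were higher. List medians of the difference were -0.09, -0.13, -0.15 and -0.16. Markers with a mean log2 level below 5 were 7 of the 17 Kupffer cell and leukocyte and 8 of the 17 stellate cell markers. They were also 5 of the 15 endothelial and 8 of the 10 cholangiocyte markers. Within control clusters 1 and 2 the medians were -0.03 and -0.15 (Kupffer and leukocyte), -0.12 and -0.24 (stellate), -0.55 and -0.24 (endothelial), and -0.04 and -0.13 (cholangiocyte). The endothelial median was -0.40 with the cluster as a block. Per pair that list ran from -0.31 to 0.07 after benzyl and from -0.16 to 0.42 after phenyl drugs. The value of 0.42 was replicate 1 of MeOPP, a pair of control cluster 1, and the other phenyl pairs were at most 0.01. In these bulk samples fewer cells of a type and less RNA per cell cannot be told apart. Kdr, a VEGF receptor of endothelium, had benzyl changes of -0.60 to 0.13 and phenyl changes of -0.02 to 1.02, where replicate 1 of MeOPP gave 1.02. Its difference of -0.62 (adjusted p = 0.320) was -1.01 and -0.60 within clusters. Kdr controls of replicates 3 of BZP and MDBP were at low log2 levels of 3.01 and 3.54, against 4.63 to 5.85 in the phenyl controls. Ramp2, an adrenomedullin receptor partner, rose by 0.36 in the phenyl mean and was at -0.13 in the benzyl mean, at low log2 levels of 2.57 to 4.87. Col3a1, a fibrillar collagen, fell by 0.92 and 0.44, and the complement component C1qb of Kupffer cells fell by 0.46 in the benzyl mean. The part of these cells in the other differences was not tested.

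The 6 differences between single drugs were tested in the same fit and did not sort fully by class. With p-values adjusted over all probe sets of all 6 differences, 0% of probe sets passed in limma for BZP minus TFMPP, the pair with the smallest adjusted p (0.062), and 0 passed for the other 5. With its own adjustment, BZP minus TFMPP had 16 probe sets under 0.05 and the other differences had 0. At an unadjusted p under 0.05, 3.7% of probe sets differed between BZP and MDBP and 5.54% between TFMPP and MeOPP, the pairs within a class. Across classes the shares were 6.42% for BZP and TFMPP, 6.93% for BZP and MeOPP, 6.45% for MDBP and TFMPP, and 4.89% for MDBP and MeOPP. The share for MDBP and MeOPP was thus below that for TFMPP and MeOPP. The median standard error of such a difference was 0.16 on the log2 scale. Over all genes the mean changes correlated at 0.857 for BZP and MDBP and 0.726 for TFMPP and MeOPP within a class. Across classes, BZP and MDBP correlated with MeOPP at 0.763 and 0.802, and with TFMPP at 0.717 and 0.702. MeOPP thus correlated more with both benzyl drugs than with TFMPP. These are descriptions across genes, and the drugs share control clusters. Single pairs of different classes correlated at a median of 0.58 (6 combinations) when they came from the same control cluster and 0.49 (30 combinations) when they did not.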

How the data were processed

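Per the submitters' processing notes the arrays were processed with RMA (version not given), and the deposited values are on a log2 scale; array medians of 4.45 to 4.52 are those of arrays normalized together. The 57 control probe sets were set aside. Of the 31042 others, 20826 had 1 gene symbol, 436 several and 9780 none in the platform annotation used.

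Treated and control arrays were paired by their titles. In limma 3.58.1 (R 4.3.3) 24 arrays were fitted with 12 pair terms and 4 drug terms, leaving 8 residual degrees of freedom; the class difference is (BZP + MDBP)/2 minus (TFMPP + MeOPP)/2, called at a Benjamini-Hochberg adjusted p under 0.05 over all probe sets. The pairing was checked: in each pair the treated and the control array departed from their groups together (correlation over probe sets 0.612 to 0.802). Control clusters come from average linkage of the 12 DMSO arrays, cut at 5. The fit was tested on simulated data.

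The members, gene lists and tests were chosen with earlier results of these data known. Of 1072 listed symbols 935 genes in 34 lists were measured. Named genes were to be the largest called differences, called list members, 22 fixed genes (19 analysed here) and the 3 genes of least difference among those changed 2-fold in both classes. As nothing was called, the other genes named were chosen after their values were seen. Of 74 genes named, Fasn, Cdkn1a, Alb, Vldlr, Hlf and Ero1b have another probe set with a class difference of opposite sign. Array precision is limited by the number of arrays.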

Additional observations from a re-analysis of the deposited data

Results flagged for a closer look

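Among the 148 groups of 6 pairs tested for the genes named, 6 held a sample far from the others by Dixon's criterion, where chance gives about 5%. Replicate 2 of BZP was the highest benzyl pair for Fasn (2.41, the next at 1.26) and for Pnpla3 (1.87, the next at 1.32). Replicate 2 of MeOPP was the highest phenyl pair for Pnpla3 (1.78, the next at 0.51) and for Pvt1 (1.00, the next at 0.23). Replicate 1 of MDBP was the lowest benzyl pair for Anxa5 (0.90, the next at 1.49), and replicate 1 of MeOPP the highest phenyl pair for Kdr (1.02, the next at 0.34).

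For 6 of 14217 genes every benzyl pair moved one way and every phenyl pair the other. The benzyl minus phenyl difference was 0.43 for Ydjc and 0.38 for Disp1, and -0.43 for Farp2, -0.34 for Cap2, -0.28 for Vom1r97 and -0.23 for Pcdh20. In limma none of these differences passed the adjusted threshold, and some single pairs were within 0.05 of 0. The count of such genes that random signs alone would give was not computed, so these 6 genes are a description and not evidence of a class difference. Mean log2 levels were 4.19 for Ydjc, 3.39 for Disp1, 4.14 for Cap2, 4.32 for Vom1r97 and 2.38 for Pcdh20. These lie below the array medians of 4.45 to 4.52, and Farp2 was at 6.33.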

How the results depend on the processing

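The class difference called 0 probe sets with no pair terms (no replicate block), class alone in the model, control cluster as a block, joined DMSO controls, repeated quantile normalization, median centring, the filter at a mean log2 value of 5, an adjusted p under 0.01, and without BZP or without TFMPP. It called 3 with replicate number as a block (Gstt3, Igfbp7, RT1-S3), 8 with a trended robust prior, 5 without MDBP, 11 without MeOPP, and 0 to 13 leaving out 1 pair (13 without replicate 1 of TFMPP, 5 without replicate 2 of MeOPP, 1 without replicate 1 or 3 of BZP). Of the alternatives added after seeing the data, array weights (0.58 to 1.88) called 10 and clusters 1 and 2 alone 0. Probe sets at an unadjusted p under 0.05 numbered 608 with no pair terms, 1257 with the filter and 1578 in clusters 1 and 2 alone. For the benzyl and phenyl means the calls were 774 and 114 with no pair terms, 1131 and 1185 with joined controls, and 3176 and 1444 at an adjusted p under 0.01; leaving out 1 pair gave 1747 (without replicate 3 of TFMPP) to 3191 for the phenyl mean. The 6 differences between drugs gave 10 calls with the replicate block, 1 after repeated quantile normalization, 4 with the trended prior, 14 with array weights, and 0 to 18 leaving out 1 pair (18 without replicate 1 of TFMPP, 8 without replicate 2 of MeOPP, 1 without replicate 3 of BZP). The cause of these shifts was not tested. Replicate numbers pair nothing across drugs in the labels: same-numbered changes had deviation correlations of -0.178 to 0.386, 8 of 18 above 0.1.

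Of 74 genes' differences these changed sign. With joined controls, Slc10a1 was 0.192, Cyp7a1 0.596, Cyp1a1 0.307, Cyp3a23-3a1 0.022, Hmox1 -0.892, Ddit3 -0.681, Trib3 -0.183, Hspa5 -0.202, Igf1 -0.121, Car14 0.337, Mbl2 0.898, Adm -0.567, Vldlr -0.425, Ehhadh 0.079, Slco1a4 0.24, Cyp2c23 0.00012, Cyp2c6v1 0.025, Otc 0.059, Car5a 0.042, Hlf 0.06, Col3a1 0.254, Anxa1 0.108 and Tagln 0.059. With control cluster as a block, Cyp1a1 was 0.309, Cyp1a2 0.033, Ddit3 -0.115, Trib3 -0.052, Hspa5 -0.15, Car14 0.215, Mbl2 0.053, Tm4sf4 -0.211, Dpys 0.06 and Anxa1 0.273. In clusters 1 and 2 alone, Cyp7a1 was 0.042, Cyp1a1 0.157, Ddit3 -0.115, Hspa5 -0.102, Car14 0.235, Mbl2 0.016, Tm4sf4 -0.359, Dpys 0.064 and Anxa1 0.253. Without BZP, Fasn was -0.16, Srebf1 -0.02, Cyp1a1 0.239 and Car14 0.0013. Without MDBP, Igf1 was -0.003, Mbl2 0.0014, Tm4sf4 -0.374 and Anxa1 0.104; without TFMPP, Cyp1a1 was 0.0036, Car14 0.156, Mbl2 0.169 and Anxa1 0.135; without MeOPP, Tm4sf4 was -0.19. Array weights gave 0.161 for Cyp1a1, 0.079 for Car14 and 0.0025 for Anxa1, median centring 0.0032 for Car14 and 0.00077 for Anxa1, and averaged probe sets 0.02 for Cdkn1a. Leaving out 1 pair, Tm4sf4 ranged from -0.087 to 0.187, Fasn from -0.16 to 0.25, Car14 from -0.127 to 0.14, Mbl2 from -0.113 to 0.169, Anxa1 from -0.148 to 0.131 and Cyp1a1 from -0.409 to 0.313. Of 952 list medians under alternatives, 44 moved by more than the spread between pairs of a drug, 18 of them with joined controls.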
